A study of Rattus norvegicus with 12 samples.

Results

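Elastic fibers give the atrial wall its recoil, and the 10 genes described here encode the elastin protein, the scaffold on which it is laid down and the enzymes that cross-link it. They are Eln (elastin), Fbn1 and Fbn2 (fibrillins), Fbln5 (fibulin-5), Mfap4 and Emilin1 (microfibril-associated and elastin-interface proteins), and the lysyl oxidases Lox, Loxl1, Loxl2 and Loxl3. The genes were chosen by symbol for their known roles, with earlier results of these data known, and 10 of 10 were found among the 22850 features of the table. All 10 passed the filter on low counts in each comparison.

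The cells were primary rat atrial fibroblasts (Rattus norvegicus) from newborn Sprague-Dawley rats, separated by differential adhesion, which enriches fibroblasts without sorting them from other attached cells. All cells received angiotensin II (AngII), a peptide hormone that activates fibroblasts, at 1 μmol/L for 48 h in medium with 2% FBS, and the AngII group received nothing further. In the AngII+HNG group HNG, an analogue of the mitochondrial peptide humanin, was added at 10 μmol/L, and in the AngII+MOTS-c group MOTS-c, another peptide encoded in mitochondrial DNA, at 5 μmol/L, each 1 h before AngII. Each group comprised 4 mRNA-seq libraries, 12 in all. No cells without AngII were analysed here, so the values show what each peptide did on top of AngII and not what AngII itself did. The replicates are described as biological, but the names of replicates 2 and 3 of each group share a number, and if these came from one culture the p-values measure in part a technical spread.

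In an elastic fiber, tropoelastin, the soluble product of Eln, is deposited on microfibrils built from fibrillins. Fibulins and EMILINs bridge elastin and microfibril, and lysyl oxidases, copper enzymes secreted by fibroblasts, convert lysine side chains to reactive aldehydes that join neighbouring chains. Lox and the Lox-like enzymes also cross-link collagen, which ties this gene group to the stiffening of fibrotic tissue.

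The libraries held 33009768 to 38322354 counts with AngII, 27960586 to 37910135 with AngII+HNG and 28514441 to 37461842 with AngII+MOTS-c, and 3 counts corresponded to 0.0786 to 0.107 CPM (counts relative to the library total, scaled here by TMM factors of 0.990 to 1.01). Such floors cover counting error only. The fibroblast markers summed to 59678 to 67184 CPM across the 12 libraries, and no marker of the 6 cell type lists was at 0 in all of them. Cardiomyocyte markers were present too, at 4868 to 6595 CPM in sum. In bulk libraries, fewer cells of a type and less RNA per cell cannot be told apart.

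On a scale per length (FPKM, the authors' values), Eln stood far above the other 9 genes. Its mean over the 12 libraries was 2274 FPKM, rank 15 of the 22850 features, and it took 0.731% to 0.963% of all counts of a library. The scaffold genes Mfap4, with 404.4 FPKM, and Fbn1, with 286.9 FPKM, came next. Loxl2 (162.7 FPKM), Fbln5 (159.8 FPKM), Loxl1 (146.4 FPKM) and Lox (138.6 FPKM) lay close together in the middle of the order. Emilin1 followed with 48.7 FPKM. Loxl3 with 12.1 FPKM and Fbn2 with 5.78 FPKM, the fibrillin best known from embryonic tissue, closed the order. Even Loxl3, the lowest of the 4 enzymes, rested on 992 to 1535 counts per library, and Fbn2 on 1365 to 2175.

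The order was fixed except in the middle. The ranges of Loxl2 and Fbln5 overlapped with AngII+HNG and AngII+MOTS-c but not with AngII. Those of Fbln5 and Loxl1 overlapped with AngII and AngII+HNG, and those of Loxl1 and Lox with AngII and AngII+MOTS-c. Every other pair of neighbours was apart in each group. The FPKM of Loxl2 carried a caveat of its own, because the length implied by its count and FPKM varied by 17.8% between libraries (5.23% for Fbn1, at most 0.772% for the other 8 genes), so changes were tested on counts.

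**Figure D1:**
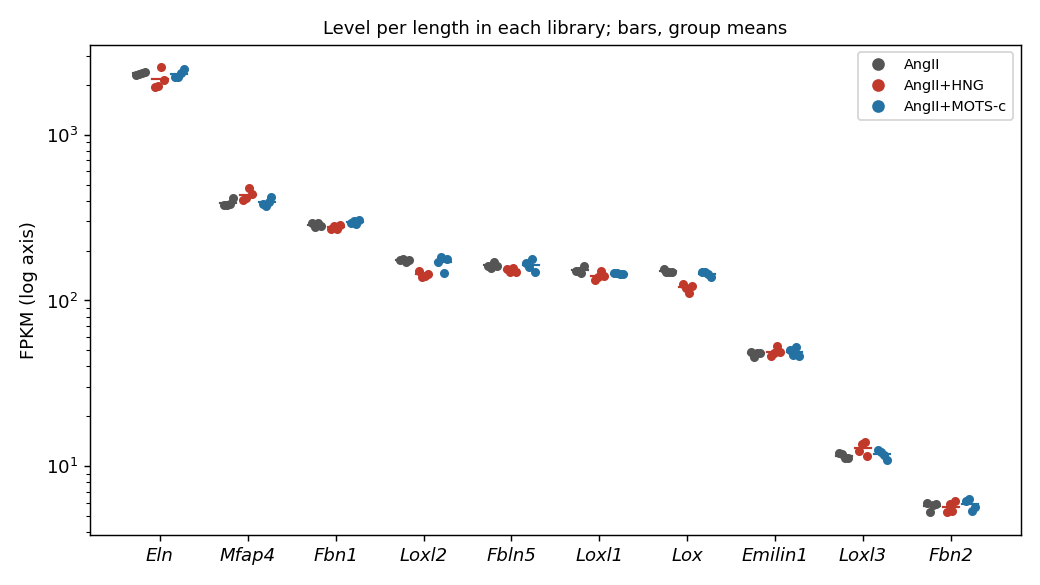
Level per length (FPKM, log axis) of the 10 genes in each of the 12 libraries, with the groups in colour and a bar at each group mean. Eln lies alone at the top with a mean of 2274 FPKM over all libraries, and Loxl3 (12.1) and Fbn2 (5.78) lie at the bottom.

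With AngII+HNG, Lox and Loxl2 were lower than with AngII alone, Lox by 21.6% and Loxl2 by 14.4%, and the other 8 genes did not pass the test. Thus 2 of 10 genes were called, both lower, by the quasi-likelihood test of edgeR (Benjamini-Hochberg adjusted p below 0.05). Of the 14524 genes tested 5.98% were called, 2.58% being lower and 3.40% higher. At an unadjusted p below 0.05 the count was 5 of 10, against 20.3% of all genes. The 4 libraries of each group lay entirely apart for 3 of the 10, Lox, Loxl2 and Fbln5, each lower with HNG, against 6.55% of all genes that were lower without overlap. The estimates were higher for 3 and lower for 7 genes with a median log2 fold change of -0.089, against 0.0043 over all tested genes. With 10 genes, these counts are a description of the group and were not tested as such.

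Lox, the founding lysyl oxidase, which acts on both elastin and collagen, had 802.0, 767.9, 768.9 and 774.3 CPM in the AngII libraries (778.3 ± 16.1, SD, n = 4). In the AngII+HNG libraries it had 642.7, 608.8, 564.4 and 621.2 CPM (609.2 ± 33.0, SD, n = 4). The highest HNG library lay well below the lowest AngII library. The log2 fold change was -0.35 with SE 0.042 and a 95% interval of -0.44 to -0.26 (edgeR with Benjamini-Hochberg adjustment, adjusted p = 0.000511). A pseudogene, Rps3a-ps12, overlaps the span of Lox in the RefSeq annotation. Shared exons were not examined, and the use of strand in counting is not given in the sources used here. Whether reads of the pair were kept apart is thus not known.

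Loxl2, a lysyl oxidase with scavenger receptor domains that is known for cross-linking collagen, had 770.0, 757.4, 746.2 and 794.0 CPM with AngII (766.9 ± 20.5, SD, n = 4). With AngII+HNG it had 657.9, 685.3, 631.6 and 647.8 CPM (655.7 ± 22.5, SD, n = 4). Again the groups were apart, with each HNG library below each AngII library. The log2 fold change was -0.22 with SE 0.038 and a 95% interval of -0.31 to -0.14 (edgeR with Benjamini-Hochberg adjustment, adjusted p = 0.00433).

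Loxl1, the enzyme most closely tied to elastin deposition, had 387.2, 390.9, 377.7 and 420.9 CPM with AngII and 341.4, 351.9, 383.6 and 358.7 CPM with AngII+HNG. In HNG replicate 3 it lay within the AngII range, while the other 3 HNG libraries lay below it. The log2 fold change of -0.13 (95% interval -0.23 to -0.031) did not pass the test (edgeR, Benjamini-Hochberg adjusted p = 0.127). Without HNG replicate 3 it was -0.17 and passed (edgeR, Benjamini-Hochberg adjusted p = 0.0282). That was the only 1 of 19 alternatives with a call, and the omission of another library brought the estimate to -0.10.

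Loxl3, a close relative of Loxl2, had its estimate on the other side of 0. It had 35.8, 35.5, 33.5 and 33.9 CPM with AngII and 36.5, 40.2, 41.3 and 34.1 CPM with AngII+HNG. HNG replicates 1, 2 and 3 lay above the AngII range and replicate 4 within it. The log2 fold change was 0.14 (95% interval -0.0013 to 0.27), which did not pass the test (edgeR, Benjamini-Hochberg adjusted p = 0.252). The span of Loxl3 overlaps the protein-coding gene Htra2 in RefSeq, and whether reads of the pair were kept apart is not known.

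**Figure D2:**
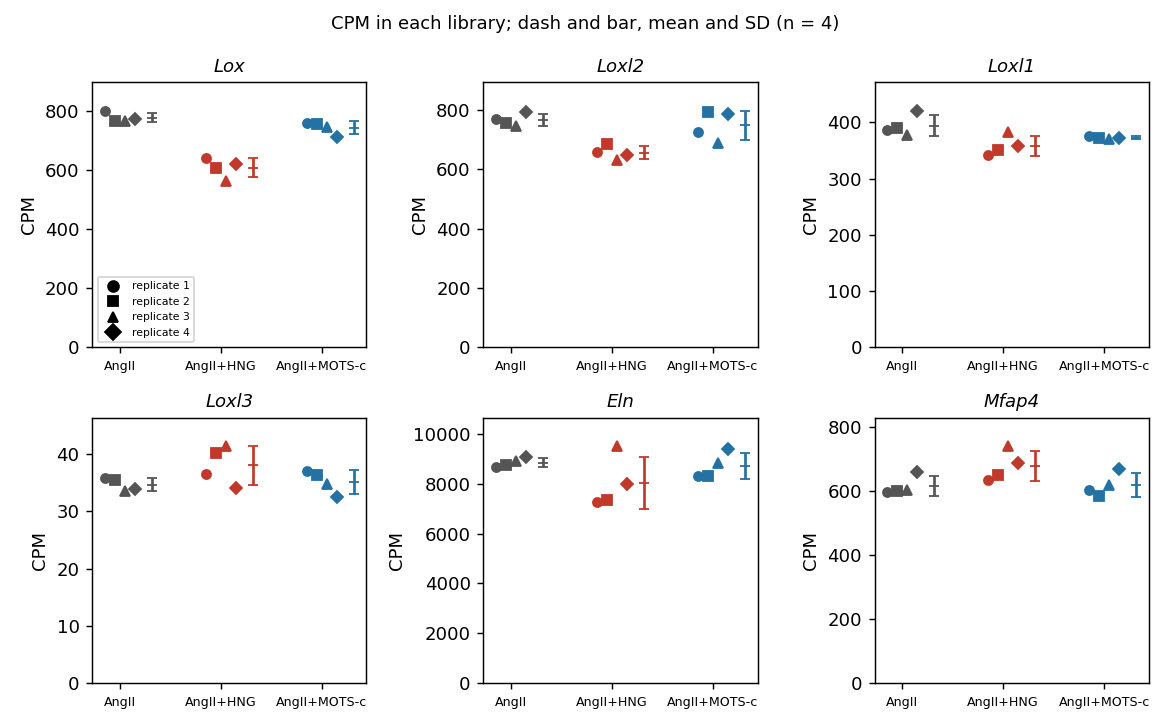
CPM in each library for Lox, Loxl2, Loxl1, Loxl3, Eln and Mfap4, with a marker shape for each replicate number and a dash and bar for mean and SD (n = 4). The AngII+HNG points of Lox (564.4 to 642.7 CPM) and Loxl2 (631.6 to 685.3 CPM) lie below all AngII points, and replicate 3 of AngII+HNG is the highest library for Eln at 9516 CPM.

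The proportions between the lysyl oxidases were compared within libraries. A library's scaling drops out when 2 genes are divided within it, and 7 such pairs were compared by two-sided exact permutation tests over the 4 against 4 libraries, in which 0.0286 is the smallest p possible. Lox counts per Loxl3 count were 13.7 to 18.2 with AngII+HNG and 21.7 to 22.9 with AngII, a log2 difference of -0.48 (exact permutation p = 0.0286, adjusted over the 7 pairs 0.0667). Loxl2 per Loxl3 was 15.3 to 19.0 against 21.4 to 23.4, a log2 difference of -0.36 with the same p and adjusted p. For Loxl1 per Loxl3 it was -0.27, again with that p. In these 3 ratios, all of them per Loxl3 count, every HNG library lay below every AngII library. With only 3 of the 7 ratios at the smallest p possible, no adjusted p could fall below 0.05, so the adjusted values decide nothing. The ratios were also chosen after values were seen. Lox per Loxl2 had a log2 difference of -0.13 (exact permutation p = 0.0571, adjusted 0.0800) and Loxl1 per Loxl2 one of 0.091 (exact permutation p = 0.2, adjusted 0.2).

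The ratio of Lox to Loxl1 was 1.47 to 1.88 with AngII+HNG and 1.84 to 2.07 with AngII, ranges that overlapped at their ends (exact permutation p = 0.0571, adjusted 0.0800). Eln per Lox was 11.3 to 16.9 against 10.8 to 11.7 (exact permutation p = 0.114, adjusted 0.133). On the FPKM scale, the 5 lysyl oxidases (Loxl4, which is a member of the wider list below, included) summed to 491.0 ± 8.21 with AngII, 418.6 ± 5.89 with AngII+HNG and 473.3 ± 17.6 with AngII+MOTS-c (SD, n = 4). These sums and shares carry the caveat on the FPKM of Loxl2, whose implied length varied between libraries. Of the sum Lox made up 30.7% with AngII and 28.6% with AngII+HNG, Loxl1 31.1% and 33.7%, Loxl2 35.6% and 34.3%, and Loxl3 2.36% and 3.08%.

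**Figure D3:**
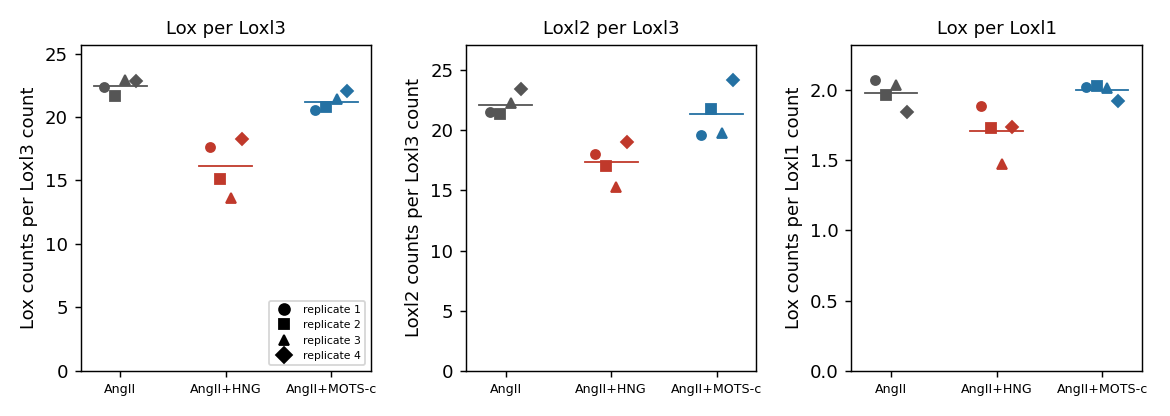
Ratios of counts within each library for Lox per Loxl3, Loxl2 per Loxl3 and Lox per Loxl1, with a marker shape for each replicate number and a line at each group mean. For both ratios to Loxl3 the AngII+HNG libraries lie below the AngII libraries (Lox per Loxl3, 13.7 to 18.2 against 21.7 to 22.9).

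The promoters of Loxl1 and Loxl3, whose estimates lay on opposite sides of 0, and of Fbln5, the scaffold gene whose groups did not overlap, are shown for their sequence context. They are the 250 bases before the start of each gene in RefSeq (GRCr8), printed 5′ to 3′ on the strand of the gene at chr8:67612225-67612474 (minus strand) for Loxl1, chr4:117098108-117098357 (plus strand) for Loxl3 and chr6:126742707-126742956 (minus strand) for Fbln5. Capitals mark the only matches to the motifs searched on both strands, the GC box core GGGCGG, the TATA box TATAAA, the core CCAAT, the AP-1 site TGANTCA, the TEAD core GGAATG and the CArG box.
Loxl1: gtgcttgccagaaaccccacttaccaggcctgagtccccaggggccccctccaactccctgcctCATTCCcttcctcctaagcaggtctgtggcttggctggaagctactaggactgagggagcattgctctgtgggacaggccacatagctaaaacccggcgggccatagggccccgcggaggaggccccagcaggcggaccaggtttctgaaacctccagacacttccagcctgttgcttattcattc
Loxl3: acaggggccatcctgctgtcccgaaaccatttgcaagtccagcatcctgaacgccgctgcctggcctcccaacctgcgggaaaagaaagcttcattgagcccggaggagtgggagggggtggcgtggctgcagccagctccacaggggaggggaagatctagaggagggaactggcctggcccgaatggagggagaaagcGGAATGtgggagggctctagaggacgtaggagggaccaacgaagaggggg
Fbln5: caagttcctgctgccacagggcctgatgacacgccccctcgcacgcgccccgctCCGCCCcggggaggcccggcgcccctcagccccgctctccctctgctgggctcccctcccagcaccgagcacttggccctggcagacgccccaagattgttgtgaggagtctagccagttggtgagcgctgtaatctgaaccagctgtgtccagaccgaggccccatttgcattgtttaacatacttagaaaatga

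Loxl1 and Loxl3 each held GGAATG, the core that TEAD factors are known to bind, 186 bases before the start in Loxl1, where it reads CATTCC on the strand shown, and 50 bases before it in Loxl3. Of the other matched members Fbn2 held it too, at 26 bases, and Fbn1 and Fbln5 did not. This motif was found in 12.1% of the 33469 promoters of the same length. Fbln5 held GGGCGG, the core of the GC box, as CCGCCC at 196 bases, which 30.5% of promoters held. TATAAA (12.9% of promoters), CCAAT (34.0%), TGANTCA (6.34%) and the CArG box (1.5%) were not among the letters of these 3 windows. RefSeq promoter entries were matched for 5 of the 10 genes, these 3 with Fbn1 and Fbn2.

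Eln varied more between the HNG libraries than in the other groups. It had 8670, 8755, 8932 and 9074 CPM with AngII (8858 ± 180.9, SD, n = 4) and 7271, 7370, 9516 and 7995 CPM with AngII+HNG (8038 ± 1036, SD, n = 4). HNG replicates 1, 2 and 4 lay below all AngII libraries and replicate 3 above all of them. The SD was 12.9% of the mean with AngII+HNG against 2.04% with AngII, and the log2 fold change of -0.14 (95% interval -0.29 to 0.014) did not pass the test (edgeR, Benjamini-Hochberg adjusted p = 0.301). Without HNG replicate 3 it was -0.23 and passed (edgeR, Benjamini-Hochberg adjusted p = 0.00276), and the count of called genes among the 10 rose from 2 to 4. Without HNG replicate 1 the log2 fold change of Eln was -0.092 and did not pass.

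HNG replicate 3 stood at an end of the order for most of these genes. It was the highest of the 12 libraries for Eln, Mfap4, Emilin1 and Loxl3, and the lowest of the 12 for Lox, Loxl2 and Fbn1. Without it the log2 fold change of Lox was -0.32 and still passed the test.

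Among the scaffold genes, Fbln5, which binds tropoelastin and Loxl1 and guides elastin onto microfibrils, had 405.4, 395.2, 425.9 and 407.4 CPM with AngII. With AngII+HNG it had 385.4, 365.9, 386.5 and 367.9 CPM. The groups did not overlap, and HNG was the lower, but the log2 fold change of -0.12 (95% interval -0.20 to -0.033) did not pass the test (edgeR, Benjamini-Hochberg adjusted p = 0.104). It passed with DESeq2 (Benjamini-Hochberg adjusted p = 0.0388).

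Mfap4, a microfibril-associated glycoprotein, had 596.7, 599.9, 604.8 and 661.3 CPM with AngII and 636.1, 651.2, 741.2 and 687.5 CPM with AngII+HNG. AngII replicate 4 reached into the HNG range, and the other 3 AngII libraries lay below it. Its log2 fold change of 0.14 (95% interval 0.030 to 0.26) was positive, but did not pass the test (edgeR, Benjamini-Hochberg adjusted p = 0.142).

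Fbn1, the main fibrillin of microfibrils, had 2909, 2757, 2884 and 2834 CPM with AngII and 2759, 2743, 2615 and 2768 CPM with AngII+HNG, ranges that overlapped. The log2 fold change was -0.062 (edgeR, Benjamini-Hochberg adjusted p = 0.338). Fbn2 had 48.6 to 55.3 CPM with AngII and 48.5 to 56.1 CPM with AngII+HNG, with a log2 fold change of -0.029 (edgeR, Benjamini-Hochberg adjusted p = 0.852). Emilin1, which sits between elastin and microfibril, had 185.6 to 198.1 and 186.6 to 212.0 CPM, with a log2 fold change of 0.016 and a 95% interval of -0.082 to 0.11. For these 3 genes the groups overlapped. The long non-coding genes LOC102553484, LOC120101649 and LOC134483035 overlap the spans of Eln, Fbn1 and Fbn2 in RefSeq. Whether their reads were kept apart from those of the fiber genes is not known. Fbln5, Loxl1, Loxl2, Mfap4 and Emilin1 overlap no other gene there.

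**Figure D4:**
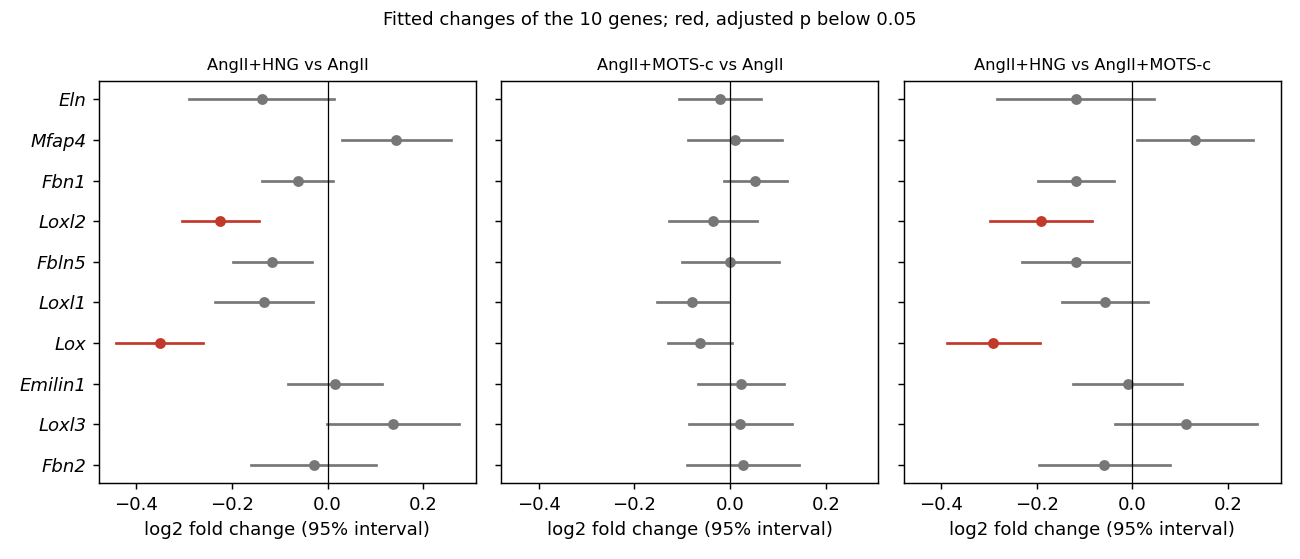
Log2 fold changes with 95% intervals of the 10 genes in the 3 comparisons, in red where the adjusted p was below 0.05. Lox (-0.35) and Loxl2 (-0.22) are red for AngII+HNG against AngII, no gene is red for AngII+MOTS-c against AngII, and the same pair is red for AngII+HNG against AngII+MOTS-c (-0.29 and -0.19).

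With AngII+MOTS-c, none of the 10 genes passed the test against AngII. The count was 0 of 10 with edgeR (Benjamini-Hochberg adjustment) and 0 with DESeq2, and 1 of 10 (Loxl1) had an unadjusted p below 0.05. Of the 14488 genes tested 0.00690% were called, which is 1 gene, and 5.05% had an unadjusted p below 0.05. The estimates were higher for 6 and lower for 4 genes, with a median of 0.0054 on the log2 scale. The comparison with AngII+HNG below and that with AngII above share their libraries, so the 3 comparisons are not independent.

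Lox had 761.9, 756.4, 745.6 and 714.4 CPM with AngII+MOTS-c (744.6 ± 21.3, SD, n = 4), each below the lowest AngII library. The log2 fold change was -0.063 with a 95% interval of -0.13 to 0.0035 (edgeR, Benjamini-Hochberg adjusted p = 0.924). Loxl1 had 376.8, 372.9, 370.4 and 372.2 CPM, a narrow range just under the AngII range, with a log2 fold change of -0.079 and a 95% interval of -0.15 to -0.0044 (edgeR, Benjamini-Hochberg adjusted p = 0.924). Lox and Loxl1 were thus lower without overlap, as were 1.70% of all genes. A p above the threshold does not show that the groups were alike.

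Loxl2 had 727.1, 791.6, 687.9 and 784.9 CPM with AngII+MOTS-c, which spread across and beyond the AngII range, with a log2 fold change of -0.036 (95% interval -0.13 to 0.057). Eln had 8325, 8325, 8829 and 9405 CPM and a log2 fold change of -0.022 (95% interval -0.11 to 0.064). Fbln5 had 421.2, 395.1, 443.8 and 373.8 CPM, around the same mean as with AngII and with a log2 fold change of 0.00069 (95% interval -0.10 to 0.10). The remaining estimates, for Fbn1, Fbn2, Loxl3, Mfap4 and Emilin1, lay between 0.010 and 0.053. The groups overlapped for all of these genes.

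The peptides, at different doses, were set side by side within AngII-treated cells. Lox was lower with AngII+HNG than with AngII+MOTS-c by 18.2% and Loxl2 by 12.4%, so that 2 of 10 genes were called, both lower, against 4.41% of the 14448 genes tested (1.77% lower, 2.64% higher). For Lox the log2 fold change was -0.29 with SE 0.045 and a 95% interval of -0.39 to -0.19 (edgeR, Benjamini-Hochberg adjusted p = 0.00318). For Loxl2 it was -0.19 with SE 0.049 and a 95% interval of -0.30 to -0.084 (edgeR, Benjamini-Hochberg adjusted p = 0.0476). The call of Loxl2 was lost when any of the 4 HNG libraries or MOTS-c replicate 1, 2 or 4 was left out, with log2 fold changes of -0.22 to -0.16 and edgeR's Benjamini-Hochberg adjusted p of 0.0573 to 0.129, and was kept without MOTS-c replicate 3.

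An unadjusted p below 0.05 was reached by 5 of 10 genes (19.3% of all genes), and 3 of 10, Lox, Loxl2 and Fbn1, were lower without overlap (6.07% of all genes). Fbn1 had 2989, 2963, 2850 and 3000.2 CPM with AngII+MOTS-c, all above the highest HNG library at 2768 CPM. Its log2 fold change was -0.12 with SE 0.037 (edgeR, Benjamini-Hochberg adjusted p = 0.0960), which passed with DESeq2 (Benjamini-Hochberg adjusted p = 0.0177) and with all 12 libraries in 1 edgeR fit (adjusted p = 0.0385). Eln differed by -0.12 on the log2 scale (edgeR, Benjamini-Hochberg adjusted p = 0.418), by -0.21 without HNG replicate 3 (adjusted p = 0.0324 in the same test), and by -0.070 without HNG replicate 1, which did not pass. The ratios of Lox to Loxl3 (log2 difference -0.40), Loxl2 to Loxl3 (-0.30) and Lox to Loxl1 (-0.23) were lower with HNG in every library (exact permutation p = 0.0286, adjusted over 7 pairs 0.0667). Between AngII+MOTS-c and AngII the lowest p of the 7 ratios was 0.0571 (exact permutation, adjusted 0.400), for Lox per Loxl3.

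Of 26 other genes of elastic fiber assembly, all of which were tested, 1 rose and 1 fell with AngII+HNG against AngII, which is near the share of 5.98% called over all genes. An unadjusted p below 0.05 was reached by 11 of the 26, against 20.3% of all genes. Without overlap 5 of the 26 were higher and 3 lower with HNG, against 7.03% and 6.55% of all genes. The median log2 fold change of the 26 was 0.044. Fbln1, a fibulin found with elastin and in basement membranes, had 57.5, 55.7, 62.3 and 71.6 CPM with AngII and 79.9, 75.4, 80.8 and 103.8 CPM with AngII+HNG, groups that were apart. It rose by 0.46 on the log2 scale (edgeR, Benjamini-Hochberg adjusted p = 0.0146). Ltbp2, a relative of the fibrillins that binds Fbln5, had 840.9, 829.4, 827.2 and 799.9 CPM with AngII and 742.3, 686.4, 751.5 and 673.8 CPM with AngII+HNG, again without overlap. It fell by 0.21 on the log2 scale (edgeR, Benjamini-Hochberg adjusted p = 0.0131). Without AngII replicate 1 the count of this list was 0 and without AngII replicate 2 it was 1, while without HNG replicate 1 it was 5.

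The most abundant genes of that list per length were Bgn (biglycan), with 2144 FPKM, and Fbln2, with 282.0 FPKM. Bgn had a log2 fold change of 0.035 with AngII+HNG (edgeR, Benjamini-Hochberg adjusted p = 0.686). With AngII+MOTS-c 0 of the 26 were called against AngII by edgeR and 0 by DESeq2, with 1 at an unadjusted p below 0.05. Between the peptides 1 of 26 was called, Fbln1, higher with HNG by 0.39 (edgeR, Benjamini-Hochberg adjusted p = 0.0437), near the 4.41% called over all genes. The call of Fbln1 was kept in 11 of 19 alternatives and was lost without HNG replicate 1 or 4 or MOTS-c replicate 1, 2 or 3. The count of called genes of the list was 0 without MOTS-c replicate 1 or 3, 3 without HNG replicate 3 and 4 without MOTS-c replicate 4.

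The elastin breakdown list, which includes genes of the elastin receptor complex and inhibitors of proteases, was examined in the same fits. It held 18 genes, of which Ctsv was not found by symbol, Elane was at 0 counts and Mmp7, at 0 to 6 counts per library, did not pass the filter, so that 15 were tested. With AngII+HNG 9 of these 15 rose and 0 fell against AngII, where 3.40% of all genes rose, and the median of the 15 was 0.20 on the log2 scale. The list was chosen with earlier results of these data known, so its counts are a description and not a test. All 9 lay above the AngII libraries without overlap, against 7.03% of all genes. The estimates of Timp1 (-0.082), Timp3 (-0.099) and Mmp9 (-0.082) were negative and did not pass, and Timp3 was lower without overlap. Without AngII replicate 1 the count was 5.

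Mmp12, the macrophage elastase, had 69.6, 66.1, 74.6 and 78.0 CPM with AngII and 95.5, 91.3, 100.2 and 111.9 CPM with AngII+HNG. It rose by 0.47 on the log2 scale (edgeR, Benjamini-Hochberg adjusted p = 0.00148). Mmp2, a gelatinase that also cuts elastin, had 959.4, 969.1, 892.3 and 989.6 CPM with AngII and 1110, 1199, 1162 and 1228 CPM with AngII+HNG. It rose by 0.30 (edgeR, Benjamini-Hochberg adjusted p = 0.00161). The cathepsins Ctsl (0.31), Ctsb (0.39) and Ctss (0.37) rose as well, with Benjamini-Hochberg adjusted p of 0.000575, 0.00832 and 0.0127 in edgeR's test. At 376.5 FPKM over all libraries Ctsl was the most abundant gene of the list per length, and Mmp2 followed with 319.0 FPKM.

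Ctsa (0.24) and Glb1 (0.14), whose products belong to the elastin receptor complex and to the lysosome, also rose, with adjusted p of 0.00277 and 0.0352 in edgeR's test with Benjamini-Hochberg adjustment. The third gene of that complex, Neu1, had 0.15 and did not pass (edgeR, Benjamini-Hochberg adjusted p = 0.186). Not all that rose degrade elastin, since Timp2 (0.20), an inhibitor of metalloproteinases, and Cst3 (0.21), an inhibitor of cathepsins, rose with adjusted p of 0.0151 and 0.0499 in edgeR's test with Benjamini-Hochberg adjustment. The calls of Cst3 and Glb1 were each kept in only 9 of 19 alternatives and that of Timp2 in 15, the losses of Timp2 including those without AngII replicate 1, 2 or 3.

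With AngII+MOTS-c 0 of the 15 were called against AngII by edgeR and 0 by DESeq2, and 1, Ctsk, had an unadjusted p below 0.05 with a log2 fold change of -0.16. Between the peptides 9 of 15 were called higher with HNG and 0 lower, against 2.64% and 1.77% of all genes. They were Ctsa, Mmp2, Mmp12, Ctsb, Ctsl, Ctss, Timp2 and Cst3 together with Ctsk, another cathepsin, at 0.35 (edgeR, Benjamini-Hochberg adjusted p = 0.00854). The call of Cst3 was kept in 10 of 19 alternatives and that of Ctss in 14. In this comparison 10 of the 15 were higher with HNG without overlap, against 6.44% of all genes. These counts too describe a list chosen with earlier results known.

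**Figure D5:**
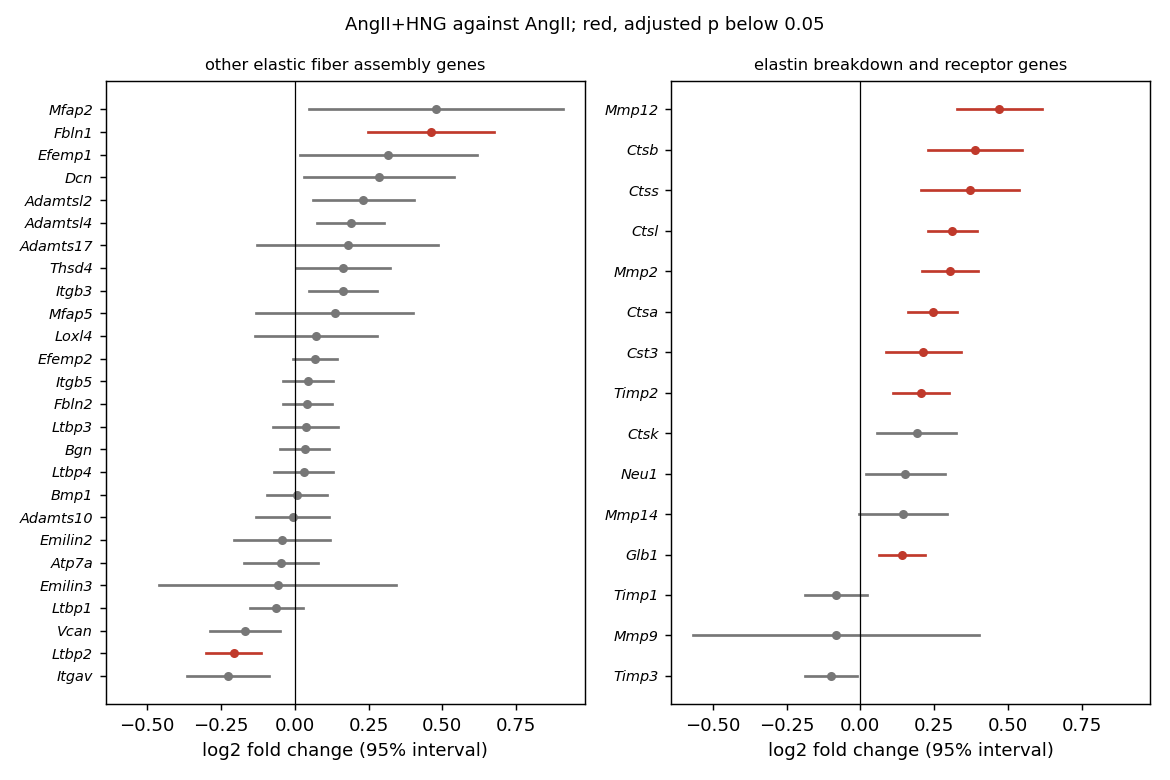
Log2 fold changes with 95% intervals of the other elastic fiber assembly genes (26) and the elastin breakdown and receptor genes (15 tested) for AngII+HNG against AngII, in red where the adjusted p was below 0.05. On the breakdown side 9 genes are red, all to the right of 0, and on the assembly side Fbln1 (0.46) and Ltbp2 (-0.21).

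Some markers of fibroblasts and of other cell types also differed between AngII+HNG and AngII. Of the 9 fibroblast markers 2 were higher with HNG, against 3.40% of all genes. They were Thy1 (0.17) and Tcf21 (0.28), with Benjamini-Hochberg adjusted p of 0.0220 and 0.00746 in edgeR's test. The estimates of the 9 were higher for 7 and lower for 2, Col1a1 (-0.041) and Col1a2 (-0.025). Their sums overlapped, at 61433 to 65367 CPM with AngII and 59678 to 67184 with AngII+HNG. The macrophage markers summed to 307.7 to 404.1 CPM with AngII+HNG against 221.6 to 266.7 with AngII and 219.5 to 265.4 with AngII+MOTS-c, and 4 of 8 tested (Ptprc, Cd68, Mrc1 and Lyz2) were higher with HNG than with AngII, where 3.40% of all genes were. Of the other 4, Csf1r and C1qa had log2 fold changes of 0.17 and 0.10, C1qb -0.046 and Adgre1 -0.36, none of which passed the test. The smooth muscle and pericyte markers, which activated fibroblasts share in part, summed to 5935 to 6455 CPM with AngII+HNG, 7466 to 7753 with AngII and 7046 to 7681 with AngII+MOTS-c, and 6 of 9 were lower with HNG than with AngII, against 2.58% of all genes. Of this list Des (0.023), Rgs5 (-0.050) and Cspg4 (-0.0036) did not pass. The endothelial markers summed to 82.4 to 90.6 CPM with AngII+HNG, 64.4 to 72.5 with AngII and 68.5 to 73.7 with AngII+MOTS-c. Of these, 3 of 7 (Kdr, Tek and Egfl7) were higher with HNG than with AngII, against 3.40% of all genes. Pecam1 (0.15), Cdh5 (0.25), Vwf (0.18) and Emcn (-0.19) did not pass. For cardiomyocyte and mesothelial markers 0 of 8 and 0 of 6 were called by edgeR against AngII, with 1 and 0 at an unadjusted p below 0.05. The part of these cell types in the fall of Lox and Loxl2 and the rise of Mmp12 and the cathepsins was not tested.

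As a description, genes were ordered by how closely their ranks over the 12 libraries followed those of Eln and Lox among 12372 genes (mean CPM of 1 or more). For Lox the nearest were Gucy1b1 and Hey2, with a mean absolute rank difference of 0.667, and Cacul1, Calu and Ccn4, with 0.833. For Eln they were Tmem98 with 1.00, Dnaja2 and Erh with 1.17, and Aktip and Iscu with 1.33. Among the 10 genes the nearest to Lox was Loxl1, with 1.83, ahead of Loxl2 with 2.00, and the farthest was Mfap4 with 5.50. Loxl1 was also the nearest to Eln, with 2.33. These differences share the libraries and the treatment groups, and no p is given.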

How the data were processed

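Primary rat atrial fibroblasts were sequenced in 12 libraries, grouped by the treatment in the sample titles. The authors deposited a read count for each gene and library as a whole number, not normalized. FPKM values, deposited by the authors as well, served here for levels per length and as an alternative. The submitters' processing notes name HISAT2, Picard 1.41 and SAMtools 0.1.18. Which genome build and counting tool were used, and whether strand was, is not given in the sources used here. The deposited table lists 22850 features, of which 4465 had 0 counts in all libraries, and 18646 matched RefSeq by symbol. Depth was 27960586 to 38322354 counts per library.

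The main test was that of edgeR 4.0.16 in R 4.3.3 (filterByExpr, TMM, glmQLFit and glmQLFTest). It took the 8 libraries of a comparison at a time, with Benjamini-Hochberg adjustment over all tested genes and a threshold of 0.05. Printed CPM were scaled by TMM over the 12 libraries. Intervals are 95% intervals of the fit. Exact permutation tests of ratios used Python 3.11.15 with scipy 1.17.1, and these ratios were chosen after values were seen. The computation was tested on simulated data. Alternatives were DESeq2 1.42.0, RLE size factors, no filter, at least 10 counts in every library, all 12 libraries in 1 fit, replicate blocks, replicates 2 and 3 summed, limma 3.58.1 on log2 of FPKM plus 1 or 0.1, and the omission of libraries.

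The members and lists were chosen with earlier results of these data known. The genes named were the 10 members, the genes of the other 2 lists that passed the test in any comparison, the 2 of each list with the highest mean FPKM, and the 5 nearest in rank to Eln and Lox. Loxl4, Neu1, Ctsv, Elane, Mmp7, Mmp9, Timp1, Timp3 and the cell type markers were named after their values were seen. Promoter sequences are from RefSeq (GRCr8), and the 50 bases after the start were left out.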

Additional observations from a re-analysis of the deposited data

Results flagged for a closer look

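In 3 of 30 sets of 4 libraries (10 genes in 3 groups), 1 library stood apart from the other 3 by a share of the whole range above Dixon's 95% limit for 4 values. Chance alone flags about 1 in 20 such sets. Fbn1 was lowest in AngII+HNG replicate 3, at 2615 CPM (0.835 of the range). Mfap4 was highest in AngII replicate 4, at 661.3 CPM (0.876 of the range). Emilin1 was lowest in AngII replicate 2, at 185.6 CPM (0.840 of the range).

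The effects of the peptides differed for Lox and Loxl2 by the direct test of AngII+HNG against AngII+MOTS-c. The log2 difference was -0.29 for Lox, with every HNG library below every MOTS-c library, and -0.19 for Loxl2, also in every library. The call of Loxl2 was lost in 12 of 19 alternatives, that of Lox in 0.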

How the results depend on the processing

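Each result was recomputed under 19 alternatives. Lox and Loxl2 were called lower with AngII+HNG than with AngII in 19 of 19, at log2 fold changes of -0.38 to -0.32 for Lox (edgeR, DESeq2 or limma, adjusted p 1.0e-12 to 0.0199) and -0.28 to -0.20 for Loxl2 (adjusted p 9.1e-07 to 0.0255). Lox was also called in 19 of 19 between the peptides, and Loxl2 in 7 of 19. The count of the 10 members called was 2 to 4 against AngII when a library was left out, 0 in all alternatives for AngII+MOTS-c, and 1 to 2 between the peptides when a library was left out. Between the peptides it was 1 with no filter, with a replicate block by library name number, with limma on FPKM plus 1 or plus 0.1, and without replicate 4 of both groups. It was 3 with DESeq2, with all 12 libraries in 1 fit and with the replicate block by title number (adjusted p of Fbn1 0.0177, 0.0385 and 0.0411), and against AngII it was 3 with DESeq2. The cause was not tested.

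For other assembly genes against AngII (2 called), the count was 5 with DESeq2, 4 with at least 10 counts in every library, 4 with all 12 libraries in 1 fit, 0 with FPKM plus 0.1 and 0 to 5 when a library was left out. Between the peptides (1 called) it was 5 with DESeq2, 3 with all 12 libraries in 1 fit, 0 with replicates 2 and 3 summed, 0 with FPKM plus 1 or plus 0.1, 2 without replicate 4 of both groups and 0 to 4 when a library was left out. For breakdown genes the count of 9 was 5 to 9 against AngII and 6 to 9 between the peptides when a library was left out, and 5 between the peptides with FPKM plus 0.1. Over all genes, 869 calls of AngII+HNG against AngII became 1205 with DESeq2, 396 with FPKM plus 0.1 and 431 without AngII replicate 1, and 637 between the peptides became 255 with FPKM plus 0.1 and 322 without MOTS-c replicate 2. The 1 call of AngII+MOTS-c against AngII became 3 with DESeq2 and 0 with all 12 libraries in 1 fit.

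Same-numbered libraries deviated together only weakly, with correlations of -0.030 to 0.19 between AngII+HNG and AngII, 0.015 to 0.15 between AngII+MOTS-c and AngII and 0.010 to 0.24 between the peptides, and not every library correlated best with its own number, although replicate 4 did in all 3 comparisons, replicate 3 between AngII+MOTS-c and AngII and replicates 2 and 3 between the peptides. Since not every pair was above 0.1 and no source ties the numbers to a shared preparation, they were not treated as pairs. With the replicate block by title number, the count of other assembly genes was 7 against AngII and 7 between the peptides, and that of all genes 1111 and 1054. The block by title number also added the call of Fbn1 between the peptides. With the block by library name number the count of other assembly genes was 5 against AngII and 2 between the peptides, and that of all genes 1113 and 485.

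Of 570 recomputed estimates of the 10 genes 27 changed sign, 0 of them with a call (edgeR, DESeq2 and limma), all from estimates near 0. Emilin1 went to -0.0087 against AngII with replicates 2 and 3 summed, and between the peptides to 0.026 with the block by library name number and 0.0029 and 0.0030 with limma. Fbln5 with AngII+MOTS-c went to -0.00089 with no filter, -0.0016 and -0.021 with the blocks and -0.013 with replicates 2 and 3 summed. When a library was left out, with AngII+HNG against AngII Fbn2 ranged from -0.073 to 0.0016 and Emilin1 from -0.025 to 0.040, and between the peptides Emilin1 from -0.050 to 0.019. With AngII+MOTS-c against AngII Eln ranged from -0.060 to 0.00029, Fbn2 from -0.014 to 0.065, Fbln5 from -0.042 to 0.041, Loxl2 from -0.064 to 0.0020, Loxl3 from -0.0053 to 0.058, Mfap4 from -0.030 to 0.046 and Emilin1 from -0.012 to 0.048. Of 437 recomputed estimates of the other named genes 0 changed sign and 57 lost a call.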
